A study of Mus musculus with 6 samples.

Results

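The 7 genes Lrp2, Cubn, Amn, Dab2, Pdzk1ip1, Slc9a3r1 and Adgrg2 were followed in epididymal white fat of mice kept under control conditions or exposed to cold. They were picked by name as genes of protein uptake and transport in absorptive ducts, with their reads in control and cold mice already known. All transcripts whose GENCODE M21 gene symbol is one of these names were taken and their reads were summed per mouse. The set is 7 of 23492 genes with a read, 27 of 61729 transcripts and 1528 of 6120026 reads. Because the difference between cold and control mice was in view when the genes were chosen, their own levels are given below as a description with no test. Tests are given for other genes and for the forms of the transcripts, and of the members only a count is set beside the share of all genes.

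The libraries came from the white fat that lies along the epididymis in wild-type male C57BL/6N mice aged 20 weeks. Poly-A RNA was read as direct cDNA on a Nanopore device, without PCR, from the whole homogenised tissue of 1 animal per library. Mice 5, 6 and 10 are labelled ctrl, and mice 7, 12 and 16 were housed singly at 4 °C for 24 h before the tissue was taken. Mice were otherwise kept at 22 to 24 °C. Whether ctrl mice lived singly is not in the labels, so cold and single housing cannot be told apart.

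Absorptive epithelia such as the efferent ducts of the testis and the proximal tubule of the kidney take proteins up from the lumen through megalin, the product of Lrp2, a very large receptor of the LDL receptor family. Megalin works beside cubilin (Cubn), a receptor without a membrane anchor of its own that needs amnionless (Amn) to reach the surface. Dab2 is the adaptor that binds NPXY motifs in the tails of such receptors and links them to the AP-2 complex and clathrin. Pdzk1ip1 (MAP17) is a small membrane protein whose end binds PDZ domains, Slc9a3r1 (NHERF1) is a PDZ scaffold that ties transporters to ezrin in microvilli, and Adgrg2 is an adhesion G protein-coupled receptor known from the efferent ducts, where its loss disturbs fluid reabsorption.

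The pair of receptor and adaptor can be seen in the coding sequence. The last 600 coding bases of Lrp2-201, the annotated form with nearly all Lrp2 reads, hold 2 NPXY motifs, whose codons are in capitals (GRCm38, minus strand, chr2:69430281-69430340 for the first and, across an intron, chr2:69425786-69426012 for the second). Dab2 has a 654-base exon that some forms keep and others skip, and it carries the 2 DPF motifs of the protein, which are known to bind AP-2 (plus strand, chr15:6429440-6429553, within the exon chr15:6429296-6429949; DPF codons in capitals). The end of the Pdzk1ip1 coding sequence is shown with the 4 codons before the stop in capitals, the part known to bind PDZ domains (plus strand, chr4:115092997-115093545, across an intron). The first of the Adgrg2 sequences is an exon with alternative ends, with the 9 bases that only the 48-base version holds in capitals (plus strand, chrX:160458835-160458882), and the second is a 42-base exon that forms keep or skip (chrX:160463328-160463369). They are read 5′ to 3′ from the GENCODE M21 transcripts.
Lrp2 tail, first NPXY: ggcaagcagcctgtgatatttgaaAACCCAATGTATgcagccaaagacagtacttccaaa
Lrp2 tail, second NPXY: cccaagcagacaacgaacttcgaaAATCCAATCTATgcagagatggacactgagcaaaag
Dab2, DPF stretch: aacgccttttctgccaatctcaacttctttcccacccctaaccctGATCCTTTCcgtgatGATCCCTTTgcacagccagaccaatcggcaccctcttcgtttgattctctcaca
Pdzk1ip1, coding end: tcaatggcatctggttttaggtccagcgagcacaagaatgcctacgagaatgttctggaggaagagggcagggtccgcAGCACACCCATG
Adgrg2, 48-base exon: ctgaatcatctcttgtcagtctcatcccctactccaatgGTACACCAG
Adgrg2, 42-base exon: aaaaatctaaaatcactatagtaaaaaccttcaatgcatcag

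The libraries held between 725273 and 1339385 reads assigned to genes, so that 1 read is worth 0.747 to 1.38 CPM (reads scaled to 1000000 reads on genes per library) and a count of 0 allows up to 3 reads, or 2.24 to 4.14 CPM. These limits cover counting error only. The cold 7 library is the shallowest and stands apart in other respects. It holds 222 reads of Crisp1, a secretory gene of the epididymal epithelium, against 0 to 2 in each other library. Macrophage marker genes summed to 2014 CPM in it, the highest of all libraries, and endothelial ones to 717 CPM, the lowest. Mesothelium genes summed to 428.8 CPM in it, against 177 in cold 12 and 168.6 in cold 16. Each fitted value of the 7 genes is therefore also given without it.

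Lrp2, the receptor (chr2:69424340-69586065, minus strand), had 16, 10 and 10 reads in ctrl mice 5, 6 and 10 and 25, 132 and 92 in cold mice 7, 12 and 16. On the CPM scale these were 17.1, 7.47 and 8.83 against 34.5, 110.7 and 117.5. The cold libraries all lay above the ctrl libraries, but cold 7 lay nearer to the ctrl mice than to cold 12 and cold 16. The mean level was 11.1 ± 5.19 CPM (SD, n = 3) in ctrl and 87.6 ± 46.1 CPM (n = 3) in cold mice, a ratio of 7.88. The fitted log2 difference was 3.08 ± 0.37 (SE), and 3.41 without cold 7. In bulk tissue, a change in the number of cells of a type and a change in RNA per cell cannot be told apart, and this holds for every gene below.

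The co-receptor was at the edge of detection. Cubn (chr2:13276338-13491813, minus strand) had 1 read in ctrl 6, 0 in the other ctrl mice and 1 read in each cold mouse. Pooled over a group, exact Poisson limits for these reads reach 1.63 CPM in ctrl and 3.25 CPM in cold mice. Amn (chr12:111271095-111276426, plus strand) had 1 read in all, in cold 12, with upper limits of 1.08 CPM in ctrl and 2.06 CPM in cold mice. No fold is given for either gene, since both groups were at or under 3 reads, and a difference was not detectable at this depth. The name of the set thus holds for these libraries only in part: the cubilin and amnionless arm of the uptake machinery was not seen beyond single reads.

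Dab2, the adaptor (chr15:6299788-6440712, plus strand), had 90, 84 and 105 reads in ctrl mice and 81, 175 and 105 in cold mice. The levels were 96.0, 62.7 and 92.7 CPM against 111.7, 146.8 and 134.1 CPM. The groups did not overlap, yet the gap between ctrl 5 and cold 7 was smaller than the range within either group. The means were 83.8 ± 18.3 CPM (SD, n = 3) and 130.9 ± 17.8 CPM (n = 3), a ratio of 1.56, and the fitted log2 difference was 0.69 ± 0.17 (SE), or 0.77 without cold 7.

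Pdzk1ip1, the small PDZ ligand (chr4:115088708-115093899, plus strand), had 0 reads in all 3 ctrl mice and 8, 24 and 17 reads in cold mice, or 11.03, 20.1 and 21.7 CPM. It had reads in every cold mouse and in no ctrl mouse, and its mean in cold mice was 17.6 ± 5.77 CPM (SD, n = 3). Against the limit of 3 reads over the ctrl group, 0.88 CPM, it was at least 20.6-fold higher in cold mice. This bound was 12.5 without ctrl 6, the deepest library, because fewer ctrl reads then stand behind the 0, and 23.6 without cold 7. Each mouse has a pair of deposited files, X1 and X2, and the bound was 12 with X1 alone and 8.64 with X2 alone, since each holds fewer reads.

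Slc9a3r1, the scaffold (chr11:115163341-115181181, plus strand), had 13, 11 and 18 reads in ctrl mice and 16, 24 and 20 in cold mice. Its levels were 13.9, 8.21 and 15.9 CPM against 22.1, 20.1 and 25.6 CPM, so the groups did not overlap. The means were 12.7 ± 3.98 CPM (SD, n = 3) and 22.6 ± 2.75 CPM (n = 3), a ratio of 1.78. The fitted log2 difference was 0.87 ± 0.31 (SE) and 0.86 without cold 7. The X1 and X2 files did not show this gene alike: X1 held 20 ctrl and 41 cold reads, and X2 held 22 and 19, which on the fitted scale gave 1.40 for X1 alone.

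Adgrg2, the receptor of the efferent ducts (chrX:160390690-160498070, plus strand), had 40, 43 and 48 reads in ctrl mice and 33, 147 and 136 in cold mice. The levels were 42.7, 32.1 and 42.4 CPM against 45.5, 123.3 and 173.7 CPM. Cold 7 lay just above the ctrl mice and cold 12 and cold 16 far above them. The means were 39.04 ± 6.01 CPM (SD, n = 3) and 114.2 ± 64.6 CPM (n = 3), a ratio of 2.92, and the fitted log2 difference was 1.60 ± 0.30 (SE), which was 1.93 without cold 7 and 1.23 without cold 16.

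**Figure D1:**
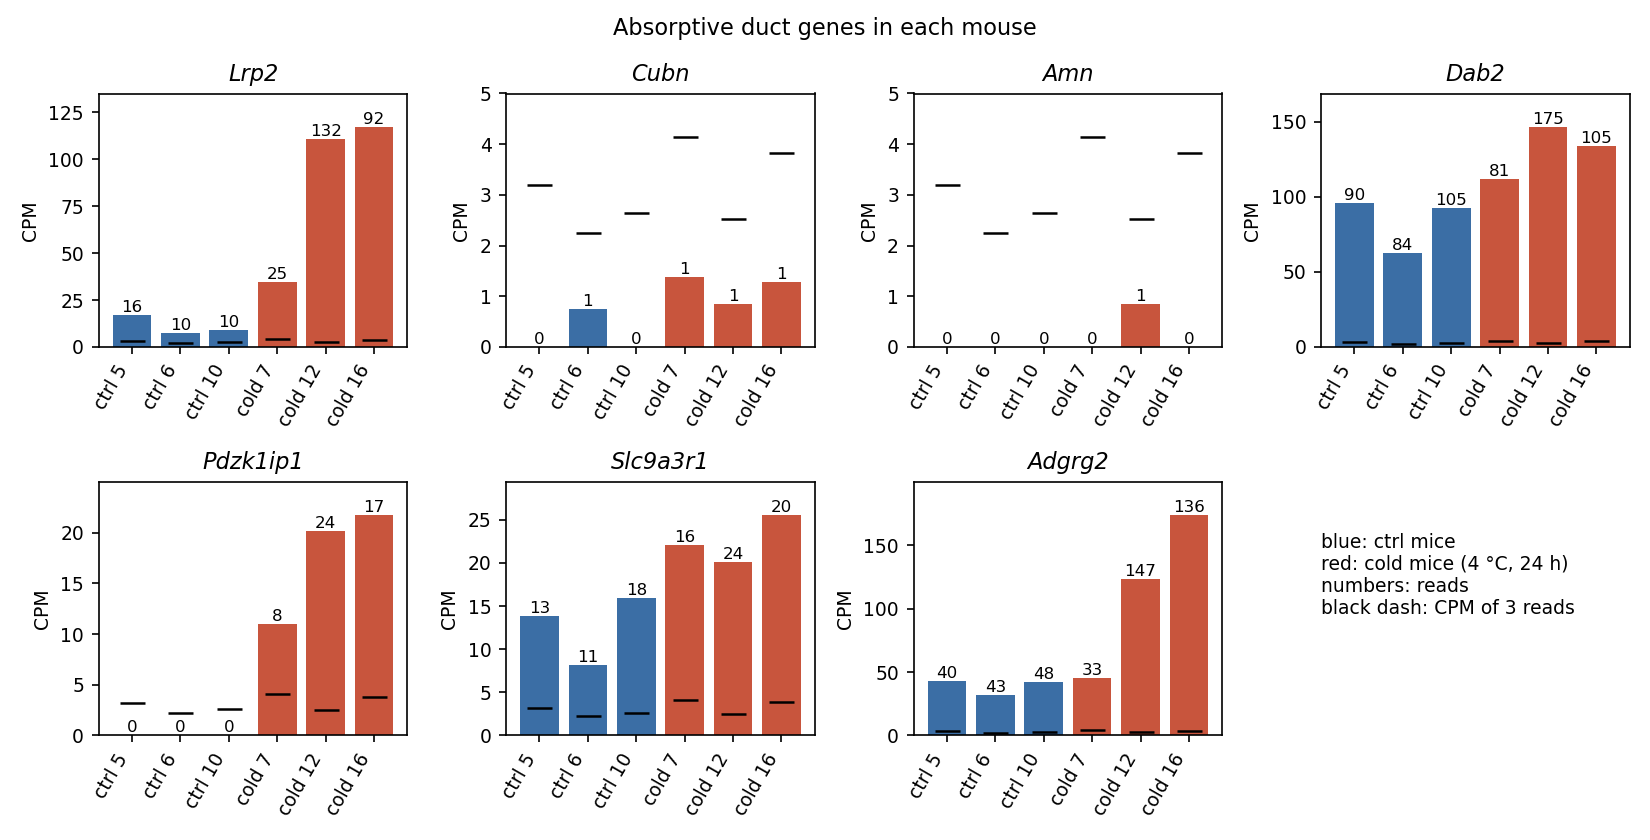
Level of each of the 7 genes in each mouse, in CPM, with the number of reads above each bar and the level of 3 reads as a black dash. Blue bars are ctrl mice 5, 6 and 10 and red bars cold mice 7, 12 and 16; Cubn and Amn stay under the dash in every mouse, and cold 7 is the lowest cold mouse for Lrp2, Dab2, Pdzk1ip1 and Adgrg2.

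Low counts kept Cubn and Amn out of the fit across all genes, and 5 of the 7 members entered it; Pdzk1ip1 entered through its cold libraries alone. Of the 9772 genes in the fit, 0.542% were higher past an adjusted p of 0.05 in edgeR's quasi-likelihood test (0.655% in either direction and 0.113% lower), and 3 of the 5 members were among them. The cold libraries all lay above the ctrl libraries for 5.96% of genes and for all 5 members. These counts are what the choice of the genes used, and nothing is read from them. The median log2 difference over all genes in the fit was 0.01. Overlapping genes on the opposite strand were thinly covered: Gm13270 beside Cubn had 4 reads, Gm15241 beside Adgrg2 had 1, and Gm16311 and Gm18888 beside Dab2 had 0. Whether the counting used strand is not given in the sources used here, so reads of such pairs may have been assigned to either gene.

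The forms of the transcripts played no part in the choice of the genes. Across all 2624 genes with more than 1 transcript in the fit, edgeR's diffSpliceDGE found 0 genes with a changed share of transcripts at an adjusted p under 0.05 (0.00%), and 25 genes at an unadjusted p under 0.05. Dab2, with 5 transcripts tested, had an adjusted p of 1.00 and Adgrg2, with 2, also 1.00. A shift was thus not detected among the tested forms of either gene. For Adgrg2 these were Adgrg2-202 and Adgrg2-203, with 63 and 83 of its 447 reads. Adgrg2-205, the form with the most reads at 89, was outside the test. Reads were assigned to annotated forms by the authors, and the files give no read lengths, so assignment to a form does not show that a read spans it.

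Dab2 reads fell on 9 forms. Dab2-201 held 257 reads, Dab2-202 held 89, Dab2-204 held 85, Dab2-203 held 72, Dab2-211 held 69, Dab2-208 held 46, Dab2-214 held 15, Dab2-209 held 6 and Dab2-212 held 1. The long exon with the DPF codons shown above is kept in Dab2-202, Dab2-204 and Dab2-214 and skipped in Dab2-201, Dab2-203 and Dab2-211. The forms that keep it took 33.7%, 31.6% and 33.7% of these reads in ctrl mice and 40.3%, 28.7% and 29.4% in cold mice. So most Dab2 reads in both groups were assigned to forms without the DPF stretch, and the cold values lay on both sides of the ctrl values. The means were 33.0% ± 1.23 (SD, n = 3) and 32.8% ± 6.48 (n = 3), with p = 1 in a two-sided exact permutation test, which for 3 against 3 mice cannot go under 0.1.

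Some Dab2 forms keep a 63-base exon (chr15:6424635-6424697). Of the reads of forms that cover the site, they took 73.9% ± 2.40 in ctrl and 72.9% ± 3.28 in cold mice (SD, n = 3 each, exact permutation p = 0.6). Dab2 also has 2 groups of first exons far apart on the chromosome. Forms that start at the upstream one took 41.5% ± 4.01 in ctrl and 41.0% ± 7.40 in cold mice (SD, n = 3 each; exact permutation p = 1). Reads were assigned to forms of both starts in all 6 mice, which does not show that the reads reach these first exons.

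Adgrg2 reads were spread over 7 forms with 4 to 89 reads each, and no form led. Forms that keep the exon with alternative ends took 63.9% ± 3.49 of reads in ctrl and 67.5% ± 8.29 in cold mice (SD, n = 3 each; exact permutation p = 0.5). Among these, the 48-base version with the 9 extra bases printed above took 54.2%, 42.9% and 59.4% in ctrl mice and 48%, 39.1% and 51.1% in cold mice, with p = 0.4 in the exact permutation test. The groups overlapped. Forms that keep the 42-base exon took 64.7% ± 4.15 of reads in ctrl and 61.3% ± 10.3 in cold mice (SD, n = 3 each, exact permutation p = 0.6). Over these 6 tests of forms the Benjamini-Hochberg adjusted p lay between 0.9 and 1. With 33 to 147 Adgrg2 reads per mouse, only large shifts could have been seen, and only if the reads reach these exons. Read lengths and the rule for ambiguous reads are not given. The tests thus cannot tell an unchanged share from reads that do not separate the forms.

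**Figure D2:**
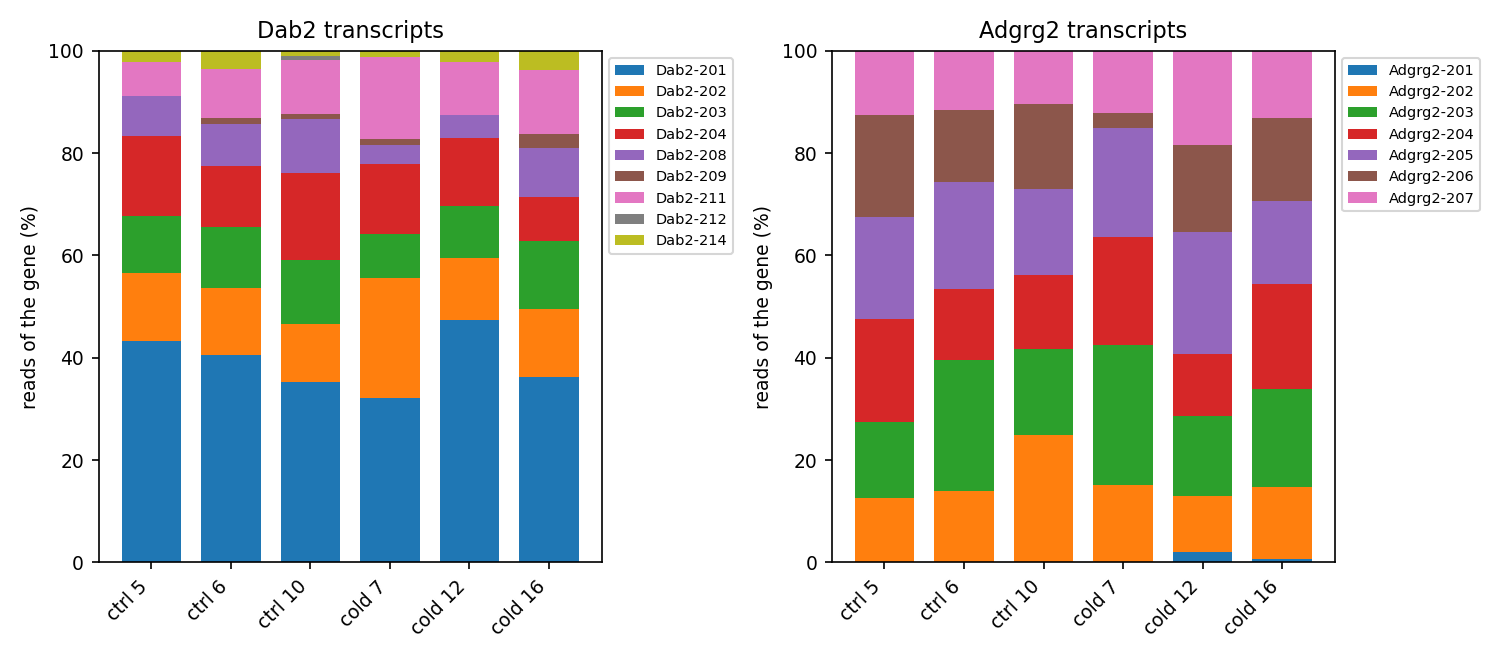
Share of the reads of Dab2 (left) and Adgrg2 (right) assigned to each annotated transcript in each mouse, in percent, stacked to 100. Dab2-201 is the largest Dab2 block in every mouse, whereas no Adgrg2 block leads in all mice.

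The other members had simpler or sparser forms. Lrp2-201, of 79 exons and 15460 bases, held 282 of the Lrp2 reads and Lrp2-203 the other 3. All Slc9a3r1 reads were assigned to its 1 form with reads, Slc9a3r1-201. Pdzk1ip1 reads, all from cold mice, fell on 6 forms: Pdzk1ip1-201 had 13, Pdzk1ip1-207 had 11, Pdzk1ip1-202 had 10, Pdzk1ip1-208 had 6, Pdzk1ip1-204 had 5 and Pdzk1ip1-205 had 4. In 201 and 207 the first exon runs on where 202 and 208 splice it, and these 2 classes took 24 and 16 reads. The unspliced class held 1 of 4 such reads in cold 7, 15 of 23 in cold 12 and 8 of 13 in cold 16, and there are no ctrl reads to set beside them.

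RefSeq promoter sequences on GRCm38.p6 were found for all 7 genes. The 250 bases before the start of Lrp2 are 66.4% G or C with 18 CpG pairs, against medians of 52.4% and 6 over 32851 promoters of the same length. Those of Pdzk1ip1 are 55.6% G or C with 3 CpG pairs. The pair of Dab2 starts differ: the upstream one has 36.8% G or C and 2 CpG pairs, and the downstream one 60% and 17. Both strands were searched for 4 motifs that do not overlap each other in these windows. The GC box GGGCGG was found in 32.7% of all promoters and the TATA box TATAAA in 12.4%. The nuclear receptor half-site AGGTCA was found in 14.0% and the HNF1 half-site GTTAAT in 6.43%. GGGCGG occurs 2 times before Lrp2, 3 times before Adgrg2, 3 times before Slc9a3r1 and 1 time before Amn, and GTTAAT 1 time before the downstream Dab2 start. No match to any of the 4 lies in the windows of Pdzk1ip1, Cubn or the upstream Dab2 start, which says only that these letters are not there. The windows of the genes that were highest in cold relative to ctrl mice, Lrp2 and Pdzk1ip1, and of the 2 Dab2 starts are printed with motif matches in capitals, without bases that GENCODE places in an exon: Lrp2 chr2:69586066-69586279 on the minus strand, Pdzk1ip1 chr4:115088458-115088707, Dab2 upstream chr15:6299539-6299787 and Dab2 downstream chr15:6386498-6386597 on the plus strand. The GTTAAT match of the last lies in the part not printed.
Lrp2 promoter: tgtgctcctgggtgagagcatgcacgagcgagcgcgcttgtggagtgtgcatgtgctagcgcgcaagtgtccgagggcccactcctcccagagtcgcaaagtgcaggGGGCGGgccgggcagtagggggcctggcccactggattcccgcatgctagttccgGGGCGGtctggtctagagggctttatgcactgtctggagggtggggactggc
Pdzk1ip1 promoter: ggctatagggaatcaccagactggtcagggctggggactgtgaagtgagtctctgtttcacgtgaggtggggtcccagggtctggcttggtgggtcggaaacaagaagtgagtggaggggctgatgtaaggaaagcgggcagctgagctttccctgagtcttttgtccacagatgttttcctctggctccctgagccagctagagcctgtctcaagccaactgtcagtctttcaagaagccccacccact
Dab2 upstream promoter: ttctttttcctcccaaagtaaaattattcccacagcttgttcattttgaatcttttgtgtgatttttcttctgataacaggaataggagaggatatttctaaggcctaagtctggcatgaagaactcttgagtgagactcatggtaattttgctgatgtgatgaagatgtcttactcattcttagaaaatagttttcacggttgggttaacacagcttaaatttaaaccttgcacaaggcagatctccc
Dab2 downstream promoter: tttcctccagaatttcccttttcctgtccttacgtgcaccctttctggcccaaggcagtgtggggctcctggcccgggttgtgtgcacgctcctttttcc

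The partners of these genes in the cell were next set beside them, from lists of named genes that hold no member. Of 21 tested genes of the clathrin coat and its adaptors, 0 passed the threshold in edgeR and 0 in DESeq2, 3 had an unadjusted p under 0.05 in edgeR, and the median log2 difference was 0.03. Cltc, the clathrin heavy chain, was at 250.4 ± 24.9 CPM (SD, n = 3) in ctrl and 195.2 ± 23.8 in cold mice. Clta, a light chain, was at 207.9 ± 10.96 and 192.7 ± 19.1 CPM, and Picalm, which helps to form coated vesicles, at 158.3 ± 12.9 and 163.4 ± 8.63 CPM.

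Of the early endosome and recycling genes, 0 of 19 passed the threshold by either tool, 1 had an unadjusted p under 0.05 in edgeR and the median was 0.01. Rab7, the GTPase of late endosomes, was at 212.0 ± 15.7 CPM (SD, n = 3) in ctrl and 213.5 ± 17.2 in cold mice. Ehd1, a recycling ATPase, was at 148.2 ± 20.8 and 158.2 ± 11.2 CPM, and Rab11a, the GTPase of recycling endosomes, at 132.4 ± 16.7 and 142.5 ± 24.7 CPM. Of 13 tested relatives and chaperones of megalin, 0 passed by either tool and 0 had an unadjusted p under 0.05 in edgeR, with a median of 0.02. Lrp1, the widely expressed large receptor of the family, was at 282.7 ± 42.4 and 272.3 ± 42.1 CPM. Sort1, a sorting receptor, was at 154.5 ± 17.1 and 156.9 ± 23.7 CPM, and Lrpap1, the chaperone that megalin needs on its way to the surface, at 145.4 ± 10.2 and 150.3 ± 23.5 CPM.

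Among known ligands of megalin and cubilin, 15 were tested. In edgeR 1 rose and 1 fell, 3 had an unadjusted p under 0.05, and the median was -0.02. In DESeq2 1 passed the threshold. Lcn2, a secreted carrier of iron-binding siderophores that megalin takes up, was at 21.3, 9.71 and 8.83 CPM in ctrl and 44.1, 124.1 and 122.6 CPM in cold mice. It was low in cold 7 among the cold mice, as Lrp2 was, and still above all ctrl mice. Its log2 difference was 2.97 ± 0.34 (SE; edgeR adjusted p = 6.90e-05), past the threshold in all 12 alternatives. The most abundant ligands did not pass: Lpl was at 9470 ± 665.8 and 8990 ± 261.8 CPM, Apoe at 6389 ± 823.6 and 5486 ± 702.0 CPM, and B2m at 2801 ± 179.9 and 2712 ± 180.1 CPM.

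PDZ scaffolds and microvillus genes were mostly too sparse for the fit. Of 6 tested, 0 passed by either tool and 2 had an unadjusted p under 0.05 in edgeR. Msn (moesin) was at 161.6 ± 8.21 CPM (SD, n = 3) in ctrl and 139.5 ± 11.3 in cold mice, Slc9a3r2, the second NHERF scaffold, at 111.0 ± 9.35 and 84.2 ± 7.68 CPM, and Rdx (radixin) at 61.8 ± 6.30 and 67.4 ± 9.26 CPM. A further 9 had reads but were not tested, and all 9 had a higher CPM over the cold mice than over the ctrl mice. The same held for 57.8% of the 13720 genes outside the fit, for 8 of 10 such genes of the transport list, 5 of 9 adhesion receptors, 3 of 3 ligands, 3 of 4 megalin relatives and 0 of 1 endosome genes. Of the 9, named after their values were seen, Pdzk1, the scaffold that Pdzk1ip1 binds, had 1, 0 and 0 reads in ctrl and 4, 19 and 13 in cold mice, a ratio of 45.5 with an exact 95% interval of 7.66 to 1845 for counting error alone. Like its partner Pdzk1ip1, it was lowest among cold mice in cold 7.

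Transport genes of absorptive epithelium included 3 of 12 tested that rose in edgeR and 0 that fell. In DESeq2 1 passed the threshold, and with X1 alone 1 passed in edgeR. Atp1b1, the beta subunit of the sodium pump, was at 38.4, 16.4 and 18.5 CPM in ctrl and 85.5, 161.0 and 111.1 CPM in cold mice, a log2 difference of 2.39 ± 0.27 (SE; edgeR adjusted p = 6.90e-05) that stayed past the threshold in all 12 alternatives. Car2, a carbonic anhydrase, went from 5.05 ± 1.44 to 17.4 ± 4.00 CPM (SD, n = 3 each; edgeR adjusted p = 0.027). It reached the filter on low counts, 9.66 CPM, in the cold mice alone, so its adjusted p is a description only. The call of Car2 depended on single mice and on the tool. It was lost in DESeq2 (adjusted p = 0.191) and without any 1 of ctrl 5, ctrl 6, ctrl 10, cold 12 or cold 16 (edgeR adjusted p = 0.051, 0.114, 0.158, 0.211 and 0.139). Aqp1, a water channel also of endothelium, was at 382.9 ± 59.5 and 398.6 ± 103.8 CPM.

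Other transporters of the list were too sparse for the fit, and 2 are named after their values were seen. Slc9a3, the sodium-proton exchanger that Slc9a3r1 is named for, had 0 reads in ctrl mice and 3, 6 and 5 in cold mice, at least 5.89-fold higher against 3 reads over the ctrl group. Slc7a9, an amino acid transporter subunit, had 2, 0 and 0 reads against 5, 25 and 16, a ratio of 29.0 with an exact 95% interval of 7.60 to 247. Of 10 tested adhesion receptors of the family of Adgrg2, 0 passed by either tool and 1 had an unadjusted p under 0.05 in edgeR. That 1, Adgrg1, was at 66.5 ± 5.34 and 110.5 ± 33.6 CPM (edgeR adjusted p = 0.080), Adgre5 was at 120.0 ± 20.0 and 129.6 ± 28.2 CPM, and Adgrf5 at 126.3 ± 14.2 and 121.9 ± 30.6 CPM (SD, n = 3 each).

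**Figure D3:**
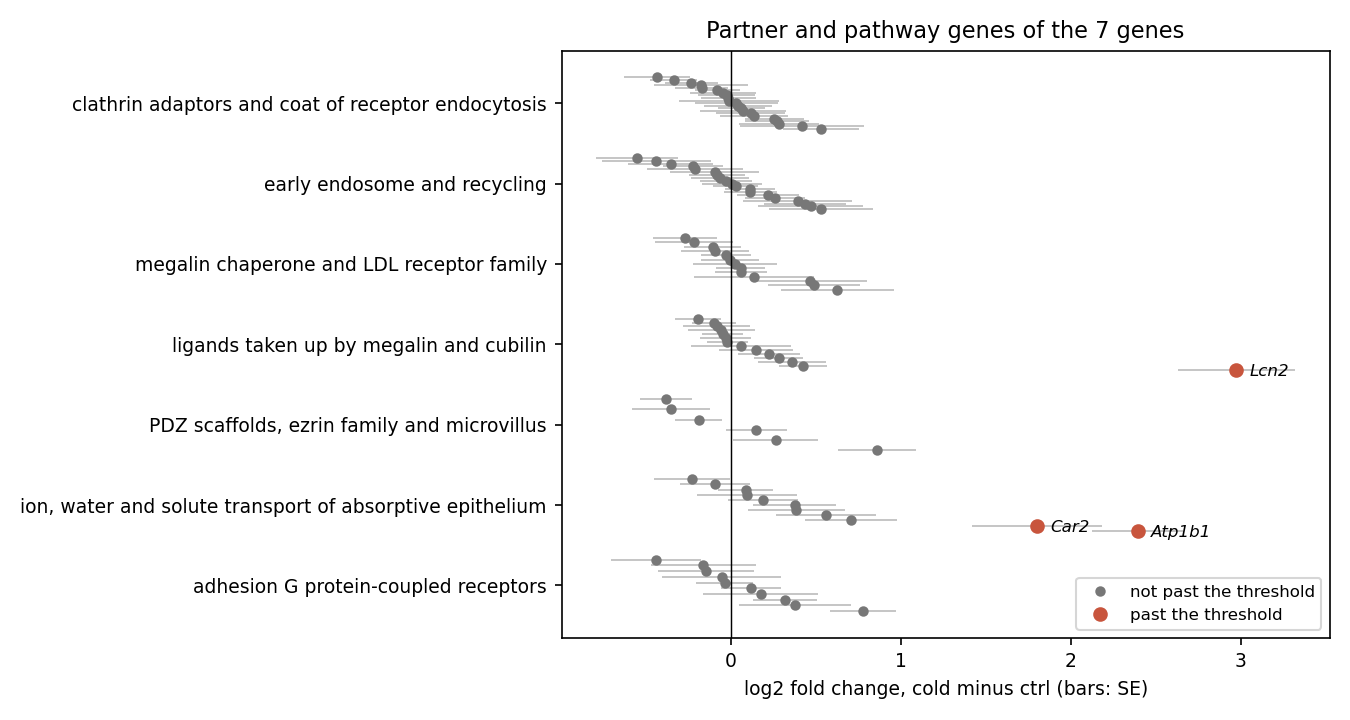
Fitted log2 difference, cold minus ctrl, with its SE for the tested genes of the 7 partner and pathway lists that did not pass the threshold and for those past it that the text describes, ordered within each list. Red points, with names, are past an adjusted p of 0.05: Lcn2, Atp1b1 and Car2 lie above 0. The endocytosis and endosome lists centre on 0.

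Markers of epithelial cells, summed as a list, were higher in the same cold mice. The 20 genes of the ductal epithelium list summed to 82.1, 43.3 and 62.7 CPM in ctrl and 208.2, 344.7 and 316.8 CPM in cold mice, with no overlap and with cold 7 lowest of the cold mice. Of its 7 tested genes 6 rose. All of these but Spint2 were under the level that the filter asks for, 9.66 CPM, in all 3 ctrl mice. They reached it in the cold mice alone, so they could enter the fit only by being high in cold mice. Their count supports nothing, and their adjusted p values below are a description only. Of the 20, 4 were at 0 in all ctrl mice, and 1 was at 0 in every library. Epcam, the epithelial adhesion molecule, went from 1.42 ± 2.46 to 30.3 ± 16.6 CPM (SD, n = 3 each; edgeR adjusted p = 0.00037, and 0.245 in DESeq2). Krt8, a keratin of simple epithelia, went from 4.46 ± 2.99 to 35.8 ± 12.0 CPM (adjusted p = 0.00010) and its partner Krt18 from 5.19 ± 1.91 to 31.2 ± 11.6 CPM (adjusted p = 0.00032). Both keratins are also known from mesothelium, whose part was not tested. Prom1, a protein of membrane protrusions, went from 3.75 ± 1.79 to 35.5 ± 14.2 CPM (adjusted p = 8.81e-05) and Spint2, a protease inhibitor, from 17.6 ± 2.30 to 50.7 ± 6.92 CPM (adjusted p = 0.00050). Cldn7, a tight junction protein, went from 1.36 ± 1.65 to 17.9 ± 7.57 CPM (adjusted p = 0.0013, and 0.082 without cold 12). Not every gene of the list rose. Krt19, also tested, was at 12.3 ± 6.99 and 18.9 ± 4.70 CPM (edgeR adjusted p = 0.658). Outside the fit, and named after their values were seen, Krt7 went down from 9.35 ± 2.63 to 5.75 ± 3.60 CPM, and Esrp2 had 5 reads in ctrl and 4 in cold mice.

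Ciliated cells, which share the efferent ducts with absorptive cells, were a further source of markers. The 14 genes of their list summed to 109.9, 41.8 and 53.0 CPM in ctrl and 143.4, 279.3 and 224.8 CPM in cold mice. Of 3 tested, 1 rose: Ccdc153 went from 2.38 ± 3.50 to 36.7 ± 19.5 CPM (SD, n = 3 each; edgeR adjusted p = 0.00029, and 0.154 in DESeq2), while Tppp3 was at 51.4 ± 21.3 and 55.4 ± 2.88 CPM. Ccdc153 too reached the level of the filter in the cold mice alone, so its adjusted p is a description only. Foxj1, the master regulator of motile cilia, was at 3.03 ± 3.84 and 43.3 ± 30.5 CPM and did not enter the fit. Of the list, 5 genes were at 0 in all ctrl mice, and Dnai1 and Dnai2 in every library.

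Markers of other cells of the male tract had another order among the cold mice. The 17 genes of secretory principal cells of the epididymis summed to 1.07, 3.73 and 4.41 CPM in ctrl and 324, 0.84 and 5.11 CPM in cold mice, nearly all of it Crisp1 in cold 7, and 8 of the 17 were at 0 in every library. The 11 genes of spermatids and sperm summed to 37.3, 37.3 and 27.4 CPM in ctrl and 153.0, 192.1 and 43.4 CPM in cold mice. Here too the sums of all cold mice lay above those of all ctrl mice, as for the ductal and ciliated lists. Most of the cold 16 sum was Odf2, at 30.7 CPM in cold 16 and 34.1, 22.4 and 20.3 CPM in ctrl mice. Prm1, named after its values were seen, had 1, 6 and 1 reads in ctrl and 19, 51 and 1 in cold mice. Prm2 had 0, 5 and 2 reads in ctrl and 27, 45 and 5 in cold mice. The 7 genes of clear cells stayed between 4.27 and 16.8 CPM in all 6 mice. Cold 7 held the most principal cell reads, nearly all of them Crisp1, and had the lowest Lrp2, Pdzk1ip1 and Adgrg2 of the cold group. The highest spermatid and sperm sum was that of cold 12. What part these other cells had in the levels of the 7 genes was not tested.

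**Figure D4:**
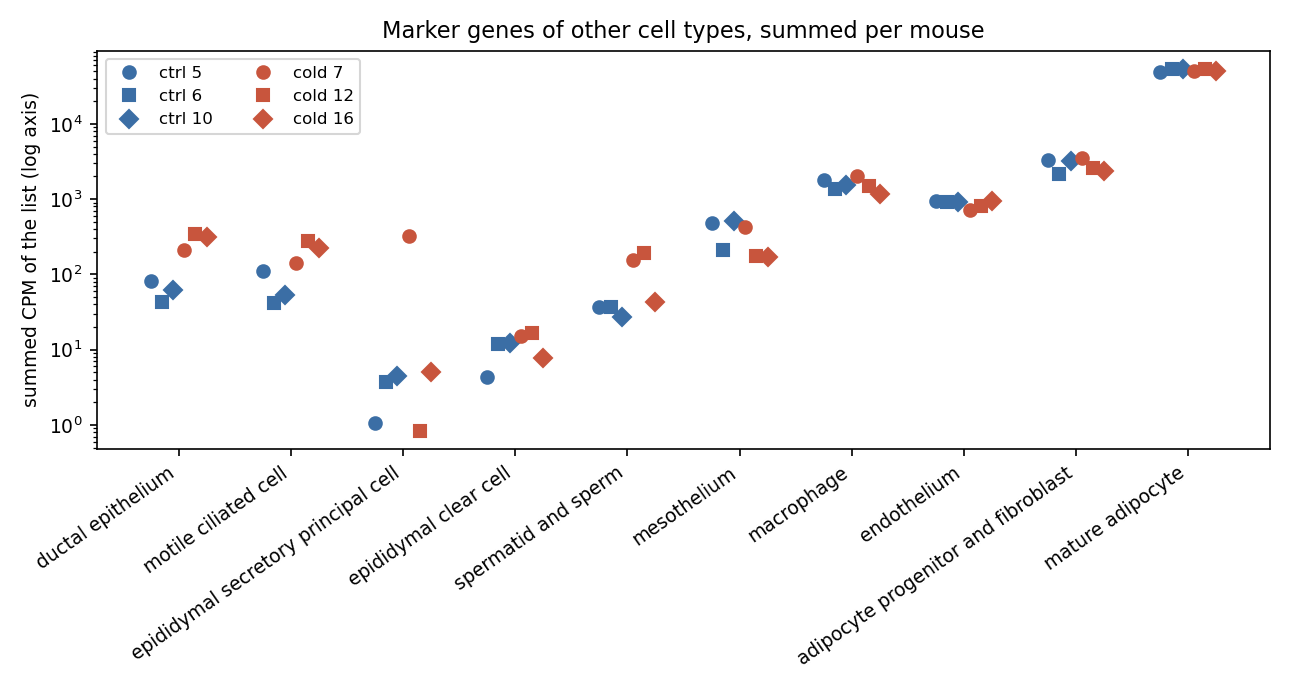
Summed level of each marker list in each mouse, in CPM on a log axis, with ctrl mice in blue and cold mice in red and 1 symbol per mouse within a group. Ductal epithelium, ciliated cell, and spermatid and sperm sums of the cold mice lie above all ctrl mice, and the principal cell sum of cold 7 stands alone at 324 CPM. Most of the spermatid and sperm sum of cold 16 is Odf2.

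The 7 genes differed in how they stood to the epithelial markers. Lrp2 had 20.8, 17.2 and 14.1 reads per 100 reads of the ductal epithelium list in ctrl mice and 16.6, 32.1 and 37.1 in cold mice. It stood in cold 7 at the ctrl ratio and in the other cold mice above it. Pdzk1ip1 had 0 in all ctrl mice, which held 77, 58 and 71 reads of the list. In cold mice it had 5.30, 5.84 and 6.86, a narrow range within that group. Adgrg2 had 52.0, 74.1 and 67.6 in ctrl and 21.9, 35.8 and 54.8 in cold mice, and the groups overlapped, with cold 16 above ctrl 5. Dab2 had 116.9, 144.8 and 147.9 in ctrl and 53.6, 42.6 and 42.3 in cold mice. Slc9a3r1 had 16.9, 19.0 and 25.4 in ctrl and 10.6, 5.84 and 8.07 in cold mice. Dab2 and Slc9a3r1 thus had more reads per epithelial marker read in every ctrl mouse than in any cold mouse, while their CPM levels were higher in cold mice. A gene that rose less than the list sum shows this by arithmetic, and the list was written with earlier results known. Its mix of genes also differed between groups: Krt7 had 32 reads in ctrl and 15 in cold mice, and Epcam 4 and 89. Dab2 is known also from macrophages and fibroblasts, and the part of such cells in its level was not tested.

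**Figure D5:**
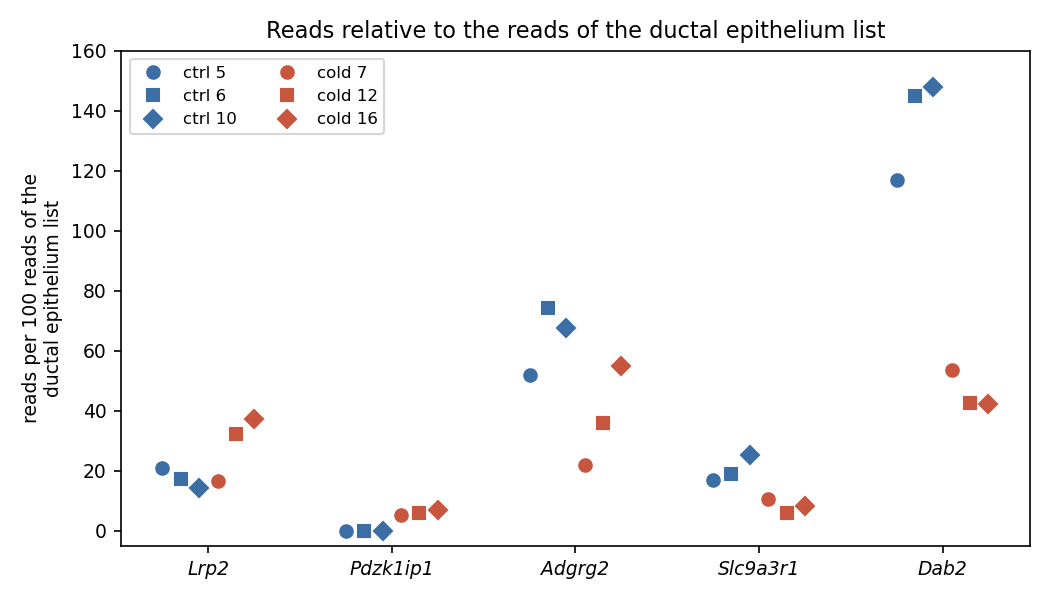
Reads of 5 of the 7 genes per 100 reads of the ductal epithelium list in each mouse; ctrl mice are blue and cold mice red. Dab2 and Slc9a3r1 lie lower in all cold mice than in all ctrl mice, and Lrp2 lies higher in cold 12 and cold 16 only.

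Genes most alike in pattern were ranked by Pearson r of log2 CPM with each of 3 members over the 6 libraries, as a description with no p. The libraries hold both groups, so any gene that differs between groups shares part of the pattern, and depth is shared too. For Lrp2 the 6 most alike were Thrsp (r = 0.998), Lcn2 (0.996), Mt3 (0.994), Atpaf2 (0.991), Calml3 (0.990) and Gstm5 (0.990). Among the 9771 other genes Pdzk1ip1 was at rank 49, Adgrg2 at 69, Dab2 at 105 and Slc9a3r1 at 366. For Dab2 they were Ezr (0.988), Cldn10 (0.977), Tesc (0.977), Phf10 (0.973), Des (0.971) and Smim15 (0.970), with Slc9a3r1 at rank 45, Lrp2 at 54, Pdzk1ip1 at 143 and Adgrg2 at 210. Ezr, the ezrin that Slc9a3r1 binds, was at 24.5 ± 5.13 CPM in ctrl and 42.7 ± 5.72 CPM in cold mice (SD, n = 3 each; edgeR adjusted p = 0.135). For Slc9a3r1 they were Amacr (0.984), Pitpnm3 (0.974), Pelp1 (0.970), Surf2 (0.970), Mogs (0.968) and Gm15501 (0.968), with Dab2 at rank 51, Pdzk1ip1 at 282, Lrp2 at 339 and Adgrg2 at 568.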

How the data were processed

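Per the labels, poly-A RNA of epididymal fat from 6 mice (3 ctrl, 3 cold) was sequenced as direct cDNA. The authors deposited raw counts of reads per transcript, as whole numbers, in 12 files, 2 per mouse (X1 and X2). Alignment used minimap2 and GRCm38, per the submitters' processing notes. How reads were counted, with which tool, strand setting and rule for ambiguous reads, is not given in the sources used here. What separates X1 and X2 is not stated; over transcripts their counts differed by about the sampling noise (chi-square per degree of freedom 1.02 to 1.06), so they were summed and each mouse counted as 1 sample. The 191 transcripts without a GENCODE M21 match were left out of gene sums.

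Genes were fitted with edgeR 4.0.16 (R 4.3.3): TMM, filterByExpr with a minimum count of 10, the quasi-likelihood test, Benjamini-Hochberg adjustment over all genes and a threshold of 0.05. The SE is derived from the test statistic. Transcript usage was tested with diffSpliceDGE, and shares of forms with exact permutation tests over mice (scipy 1.17.1). Folds against a group at 0 use 3 reads over the group. Ratios with 1 to 3 reads in ctrl mice carry exact 95% binomial intervals. The alternatives were DESeq2 1.42.0, its size factors, no filter, a filter of 10 reads in 3 libraries, X1 or X2 alone, and leaving out each mouse. The scripts were tested on simulated data.

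The members, lists, tests and the rule for named genes were chosen with earlier results of these data known. The rule names all members and their transcripts with at least 5 reads; per pathway list the genes past the threshold and the 3 tested genes with the highest mean CPM; per marker list up to 6 genes past the threshold and the 2 with the highest mean CPM; and the 6 genes most alike in pattern to Lrp2, Dab2 and Slc9a3r1. Some genes covered by this rule are left out of the text.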

Additional observations from a re-analysis of the deposited data

How the results depend on the processing

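No paired analysis was possible because the mouse numbers of the ctrl and cold groups differ, so no number is shared. All fitted log2 differences of Lrp2, Dab2, Slc9a3r1 and Adgrg2 stayed above 0 under the alternatives in which they could be fitted; Slc9a3r1 was too sparse for the fit with X2 alone. Leaving out 1 mouse gave 2.84 to 3.46 for Lrp2, 0.50 to 0.78 for Dab2, 0.59 to 1.09 for Slc9a3r1, 1.23 to 1.93 for Adgrg2 and a bound of 12.5 to 23.6 for Pdzk1ip1, which was 12 with X1 and 8.64 with X2 alone. The number of genes past the threshold, 64, was 35 (without cold 12) to 199 (without cold 7) when 1 mouse was left out, 371 with no filter and 39 with X2 alone. For pathway genes, 5, it was 2 (without cold 12 or cold 16) to 9 (without cold 7), 2 in DESeq2, 13 with no filter and 3 with X1 alone. For marker genes, 8, it was 6 to 17 (without cold 7), 35 with no filter, 5 with X1 and 5 with X2. Genes with changed transcript usage, 0, numbered 0 to 1 without 1 mouse and 1 with no filter. The cause of these shifts was not tested. Depth limits Cubn and Amn, for which single reads per mouse allow no comparison.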

Other observations

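The lists for cell types of the fat pad itself were not compared with the others by a test. Of 8 tested mesothelium genes, which mark the lining of the pad, 0 passed the threshold in edgeR or DESeq2, 3 had an unadjusted p under 0.05 in edgeR, and the median log2 difference was -0.58, with 0 of 8 fitted values above 0. Without cold 7, and also with no filter, 3 passed, and with X1 alone or without ctrl 6, 1 passed. A further 3 had too few reads for the fit and all had fewer reads per library total in cold mice. Of these Lrrn4, chosen after its values were seen, had 18, 9 and 20 reads in ctrl and 2, 4 and 2 in cold mice. Their list summed to 212 to 511.9 CPM in ctrl and 168.6 to 428.8 CPM in cold mice, and Upk3b was at 67.5 ± 32.9 and 37.4 ± 28.6 CPM (SD, n = 3 each). Endothelial genes summed to 909.9 to 933.2 CPM and 717 to 937.6 CPM, with 0 of 10 past the threshold by either tool and 1 at an unadjusted p under 0.05 in edgeR. Of 10 mature adipocyte genes 1 rose, Pnpla2, the triglyceride lipase ATGL, from 1243 ± 89.98 to 1912 ± 91.83 CPM (SD, n = 3 each; edgeR adjusted p = 0.0097). Its call was lost without ctrl 6 (adjusted p = 0.064) or cold 12 (0.096).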
